A study of Homo sapiens with 6 samples.

Results

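The end of the short arm of human chromosome 16, band 16p13.3, was described from its telomere to a gene start of 5 Mb in GRCh38. Its members were the probe sets that name exactly 1 gene placed there by the RefSeq gene table, without symbols beginning with ZNF, MIR or SNOR. They were 178 probe sets of 168 genes, out of 19279 probe sets of 18349 genes placed in the same way on the whole array. Of the 168 genes, 160 were protein-coding, 5 were listed as lncRNA and 3 as pseudogenes. Another 13 probe sets in the region were left out for their symbols, 10 of ZNF genes and 3 of SNOR genes. The region was chosen by the same contrast that is shown here, because a stretch of it from RAB40C to NTHL1 had stood out in earlier work on these arrays. The differences and calls of its members are therefore given as a description, with no test, and support nothing.

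Expression was measured on 6 Affymetrix arrays (HuGene 1.0 ST), 3 for each of 2 isogenic lines of HEK293, a human embryonic kidney cell line. HEK-BAHD1 carries 1 integrated copy of the BAHD1 cDNA under the cytomegalovirus promoter, with an N-terminal tag. The control, HEK293-CT in the labels, instead holds β-galactosidase sequence placed out of frame, which the methods describe as the empty vector. Both lines were grown in hygromycin B, and BAHD1 is an otherwise scarce protein that takes part in heterochromatin formation. Each line is 1 stable line, so the 3 arrays of a line, called biological replicates in the labels, carry no spread between independent integrations, and line and BAHD1 cannot be told apart.

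The BAHD1 probe set went against the labels. It read 10.06, 9.81 and 9.93 (log2 scale, here and for every value below) on the arrays labelled HEK293-CT, and 6.75, 7 and 6.76 on the arrays labelled HEK-BAHD1, a difference of -3.10. All 3 arrays labelled as overexpressing the gene were thus low. This direction opposes the labels and the study's own description of the lines, whose other measurements of BAHD1 were not analysed here. Every direction below follows the labels as given, and whether the array labels were exchanged was not tested. The array medians lay between 5.46 and 5.56. HEK293 markers were present, with KRT8 and VIM at means of 11.59 and 11.20, INA and NEFL at 9.79 and 9.93, and both KRT18 probe sets at 9.45 and 10.62, whereas PAX2 at 5.74 and NEFM at 4.87 lay below the median of 6.44 over all tested probe sets. Of these markers NEFM and NEFL were called higher, at 0.77 and 0.40, and VIM lower, at -0.28, and the summed values of the list were 72.59 to 73.10 on the HEK293-CT arrays and 73.15 to 73.75 on the HEK-BAHD1 arrays. Their part in the results was not tested. In RNA from whole cultures, fewer cells of a type and less RNA per cell cannot be told apart.

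Terminal bands such as 16p13.3 are known to be rich in short, closely spaced genes with CpG-rich promoters. Genes in such bands are mostly housekeeping genes, read in nearly every cell, and lie among clusters that are silent outside 1 lineage. In 16p13.3 these are the alpha globin genes, read in red cell precursors, and the tryptases, read in mast cells. The band also holds TSC2 and PKD1, the genes of tuberous sclerosis and polycystic kidney disease, and CREBBP, a histone acetyltransferase. A GC box is the short motif to which SP1 and related factors bind.

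The data bore out the description as gene-dense. Around a member gene, a median of 44 protein-coding genes started within 500 kb on either side (range 16 to 55), against 12 around all placed genes. Members were also short, with a median span of 9.4 kb (quartiles 3.8 and 26.9) against 24.5 kb (8.4 and 65.6). Both measures came from the gene table alone and were known for all 168 genes.

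To show what lies at the starts of the genes on which the results turn, the 250 bases upstream of 6 of them follow, 5′ to 3′ on the strand of the gene, from RefSeq (GRCh38.p14), with each GC box (GGGCGG or, read from the other strand, CCGCCC; overlapping matches counted) in capitals. Only genes whose RefSeq window adjoins the start of the gene as listed were used. ABCA3 (chr16:2340729-2340978, minus strand), NHERF2 (chr16:2026652-2026901, plus strand) and IFT140 (chr16:1612073-1612322, minus strand) were the 3 such genes with the largest positive differences among the calls. FLJ42627 (chr16:2638732-2638981, plus strand), PDPK1 (chr16:2537771-2538020, plus strand) and MAPK8IP3 (chr16:1705945-1706194, plus strand) were the 3 with the most negative differences among genes whose groups did not overlap.

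ABCA3: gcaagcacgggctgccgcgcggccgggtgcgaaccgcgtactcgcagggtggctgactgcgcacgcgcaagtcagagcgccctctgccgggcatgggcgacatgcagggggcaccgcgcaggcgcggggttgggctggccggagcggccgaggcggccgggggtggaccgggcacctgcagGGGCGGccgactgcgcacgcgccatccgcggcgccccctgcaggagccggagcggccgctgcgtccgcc
NHERF2: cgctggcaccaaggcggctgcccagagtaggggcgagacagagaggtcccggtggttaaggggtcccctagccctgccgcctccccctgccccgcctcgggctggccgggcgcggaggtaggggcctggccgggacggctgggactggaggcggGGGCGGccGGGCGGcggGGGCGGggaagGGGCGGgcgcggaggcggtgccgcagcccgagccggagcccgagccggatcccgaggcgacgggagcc
IFT140: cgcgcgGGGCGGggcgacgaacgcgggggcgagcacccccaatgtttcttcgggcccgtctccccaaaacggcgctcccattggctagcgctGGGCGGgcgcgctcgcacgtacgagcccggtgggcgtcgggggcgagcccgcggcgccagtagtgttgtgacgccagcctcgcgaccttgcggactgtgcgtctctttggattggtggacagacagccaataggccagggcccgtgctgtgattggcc
FLJ42627: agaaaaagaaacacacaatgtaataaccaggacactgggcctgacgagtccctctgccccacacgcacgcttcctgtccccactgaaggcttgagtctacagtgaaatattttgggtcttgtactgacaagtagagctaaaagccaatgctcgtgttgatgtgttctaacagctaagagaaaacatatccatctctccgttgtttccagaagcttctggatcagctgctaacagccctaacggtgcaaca
PDPK1: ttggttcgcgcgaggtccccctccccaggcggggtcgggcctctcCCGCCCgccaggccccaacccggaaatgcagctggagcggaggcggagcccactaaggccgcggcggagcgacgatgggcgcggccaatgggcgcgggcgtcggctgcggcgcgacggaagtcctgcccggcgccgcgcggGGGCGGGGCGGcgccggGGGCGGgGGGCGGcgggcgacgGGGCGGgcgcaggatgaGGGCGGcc
MAPK8IP3: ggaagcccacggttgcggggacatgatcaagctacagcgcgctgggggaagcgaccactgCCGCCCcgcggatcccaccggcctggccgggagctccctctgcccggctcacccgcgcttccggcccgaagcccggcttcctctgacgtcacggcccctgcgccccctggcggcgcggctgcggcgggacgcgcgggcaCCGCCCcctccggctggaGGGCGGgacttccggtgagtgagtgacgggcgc

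In these windows the share of G and C was 79.2% for ABCA3, 80% for NHERF2 and 70.4% for IFT140, with 1, 4 and 2 GC boxes. PDPK1 and MAPK8IP3, on the other side of the contrast, were as rich at 81.6% and 76.4%, with 7 and 3 GC boxes. FLJ42627, a long non-coding RNA, had 46.8%, 6 CpG dinucleotides and no GC box. Of the 3 genes on that side only FLJ42627 was called. The 6 windows were picked by their differences, and any link between sequence and direction was not tested.

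Windows of 300 bases, from 250 before a start to 50 after it, were held for 126 of the 168 genes, 75% of them. Among these 126, the median share of G and C was 71.0% (range 47.7 to 84.3) against 58.3% over the 27305 genes of the table. Over the genes of all tested probe sets that had a window it was 63%. It was 70.5% on chromosome 19 below 5 Mb, 69% on chromosome 17 above 75 Mb and 66% on the rest of chromosome 16. The other features were set only against all windows of the table. The median number of CpG dinucleotides was 33.5 against 13. A GC box was found in 98 of the 126 (77.8%) and in 44.5% of all windows. The TATA box (TATAAA) was found in 2 (1.6%) against 12%. The ETS core (CCGGAA) was found in 38 (30.2%) against 17.6%, and the E-box (CACGTG) in 21 (16.7%) against 7.4%. The YY1 motif was found in 11 (8.7%) against 6.8%, and the NRF1 motif in 2 (1.6%) against 1.4%. Each motif was searched on both strands, and none of the 6 contains another. A match is only a match of letters. With fewer than 80% of the genes covered, a check of the expression differences against promoter base composition is void.

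The members had a higher median signal than the array as a whole, but a lower upper quartile. Their median signal over the 6 arrays was 6.82 (quartiles 5.77 and 8.08) against 6.44 (4.56 and 8.32) for the 21062 tested probe sets, and 104 of the 178 (58.4%) lay in the upper 50% of signal. Median signals elsewhere were 7.08 on chromosome 19 below 5 Mb, 7.06 on chromosome 17 above 75 Mb and 6.77 on the rest of chromosome 16. The members' replicate spread was ordinary, with a median pooled SD of 0.093 against 0.090. The brightest was RPS2, a protein of the small ribosomal subunit, at 12.78, 12.71 and 12.80 on 3 probe sets, which are uncertain because RPS2 has many near-identical copies elsewhere. It was followed by RNPS1, a splicing factor of the exon junction complex, at 11.50, TRAP1, the mitochondrial HSP90, at 11.46 on its brighter probe set, ATP6V0C, a membrane subunit of the vacuolar proton pump, at 10.57, and STUB1, a chaperone-linked ubiquitin ligase, at 10.28. Their differences were 0.02 for RNPS1, 0.18 for TRAP1, -0.03 for ATP6V0C, 0.13 for STUB1 and 0.04, 0.04 and 0.06 for RPS2, and none was called.

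Compared in gene order, more members were higher than lower on the arrays labelled HEK-BAHD1, by little. The difference of means was above 0 for 113 probe sets (63.5%, against 50.4% of all tested), below 0 for 61 and 0 for 4, and ran from -0.47 to 0.49. A member was called when limma's adjusted p over all tested probe sets was under 0.05 and the group medians differed by over 0.2. On that rule 15 probe sets of 15 genes were called higher (8.43%, where 6.79% of all tested probe sets were), 2 probe sets of 1 gene were called lower (1.12%, where 6.39% were), and 161 were not called. The groups did not overlap, with all 3 arrays of one line above all 3 of the other, for 46 members in the higher direction (25.84%, against 16.7% of all tested) and for 17 in the lower (9.55%, against 16.9%). The contrast chose the region, so nothing is read from these shares. The balance of calls changed with the setting. With a trended and robust limma prior 16 members were called higher and 8 lower. Without HEK293-CT replicate 2 the counts were 7 and 7, and with only probe sets naming 1 gene they stayed at 15 and 2. With each array centred on its own median, which moved the median of all tested probe sets from 0.003 to -0.033, 11 members were called higher and 10 lower, so that the higher calls were 52.4% of the members' calls and not 88.2%, and 37.0% of all calls and not 51.5%.

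**Figure D1:**
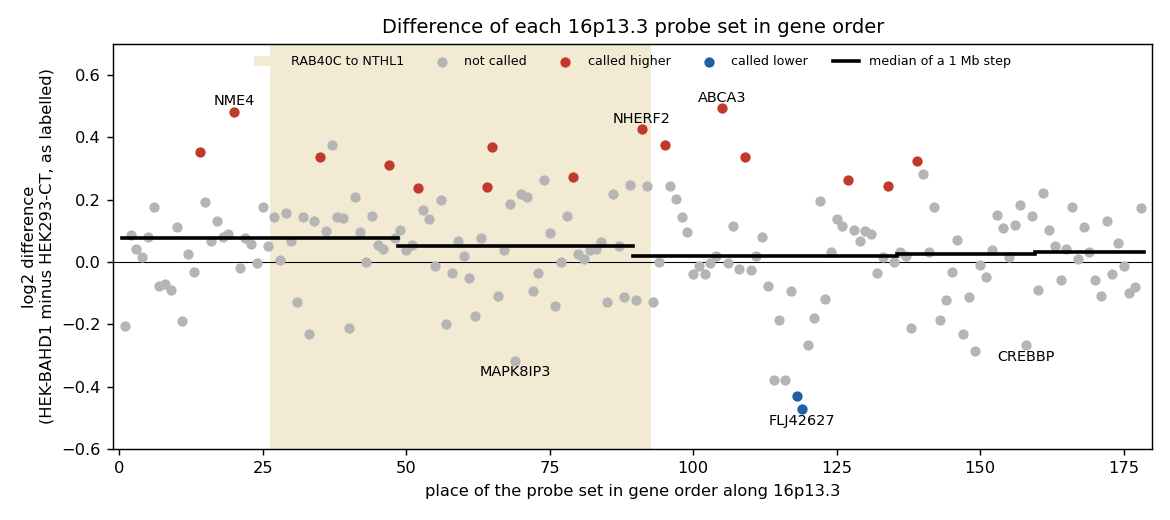
The log2 difference of each of the 178 probe sets (y axis) against its place in gene order from the telomere (x axis), coloured by call, with RAB40C to NTHL1 shaded and black lines for the medians of 1 Mb steps. The step medians fall between 0.018 and 0.078, the 15 higher calls lie in the first 4 steps, and the 2 lower calls lie side by side at FLJ42627.

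The median difference was 0.078 over the 48 probe sets of the first 1 Mb, 0.050 over the next 41, 0.018 over the 46 of the third step, 0.027 over the 24 of the fourth and 0.033 over the 19 of the last. Higher calls numbered 4, 4, 6, 1 and 0 in that order, and both lower calls lay in the third step. The stretch picked earlier ran from RAB40C, a Rab-like substrate adaptor of a ubiquitin ligase, to NTHL1, a DNA glycosylase that removes oxidised pyrimidines. It held 66 probe sets of 63 genes with a median of 0.072, 7 called higher (10.6%) and none lower. The other 112 members had a median of 0.033, with 8 called higher (7.1%) and 2 lower (1.8%). In the upper 50% of signal the medians were 0.143 and 0.040. Because the stretch was picked by this contrast, nothing is read from its being higher than the other members. The ends of that stretch were themselves not called, with RAB40C at 0.14 and NTHL1 at 0.24. The longest run of positive differences went from RPUSD1 to TPSD1, 11 probe sets between 0.04 and 0.31, of which 2 were called.

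At the limit of 5 Mb the values showed no step. The last genes inside were PPL, a desmosomal plakin, at -0.08, and SEC14L5 at 0.17. The first outside were NAGPA, an enzyme that uncovers the mannose 6-phosphate tag of lysosomal enzymes, at 0.14, and C16orf89 at -0.07. None of these 4 was called.

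The largest positive differences were those of ABCA3, NME4 and NHERF2. ABCA3, a lipid transporter known from the lamellar bodies of lung alveolar cells (chr16:2275881-2340728), read 6.62, 6.64 and 6.70 on the HEK293-CT arrays and 7.16, 7.05 and 7.23 on the HEK-BAHD1 arrays, a difference of 0.49 ± 0.06 (SE, n = 3 per line), or 1.41-fold. NME4, a nucleoside diphosphate kinase of mitochondria, read 9.47, 9.54 and 9.48 against 9.99, 9.96 and 9.99, a difference of 0.48 ± 0.05 (SE), or 1.40-fold. NHERF2, a PDZ scaffold of membrane transporters, read 7.36, 7.32 and 7.27 against 7.78, 7.59 and 7.86, a difference of 0.43 ± 0.08 (SE), or 1.34-fold. In all of them the groups were apart, and NHERF2 varied most among the HEK-BAHD1 arrays.

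RAB26, a small GTPase of secretory and synaptic vesicles, read 6.94, 6.73 and 7 against 7.34, 7.31 and 7.15, a difference of 0.38 ± 0.09 (SE). IFT140, a subunit of the complex that returns cargo along cilia (chr16:1510427-1612072), read 6.43, 6.31 and 6.34 against 6.76, 6.69 and 6.74, a difference of 0.37 ± 0.06 (SE). ARHGDIG read 7.12, 7.07 and 7.18 against 7.47, 7.45 and 7.51 on the probe set that was called, a difference of 0.35 ± 0.05 (SE). The other ARHGDIG probe set differed by 0.19 in the same direction and was not called, since one HEK-BAHD1 array read 6.78 beside 7.01 and 7.01.

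The next 4 among members whose groups did not overlap were called as well. They were JMJD8, a JmjC-domain protein of the endoplasmic reticulum, at 0.34, TBC1D24, a regulator of vesicle traffic at synapses, at 0.34, THOC6, a subunit of the THO complex of mRNA export, at 0.32, and LMF1, which matures lipases in the endoplasmic reticulum, at 0.31. LMF1 was the closest to overlap, with 6.60, 6.69 and 6.87 on the HEK293-CT arrays and 7.03, 7.10 and 6.96 on the HEK-BAHD1 arrays. The remaining 5 higher calls were smaller. PRSS21, a membrane-anchored serine protease, was at 0.26. CACNA1H at 0.24, TELO2 at 0.24, MSRB1 at 0.27 and PAQR4 at 0.24 are named after their values were seen. FBXL16, also named after its value was seen, was at 0.38, but its groups overlapped and it was not called.

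**Figure D2:**
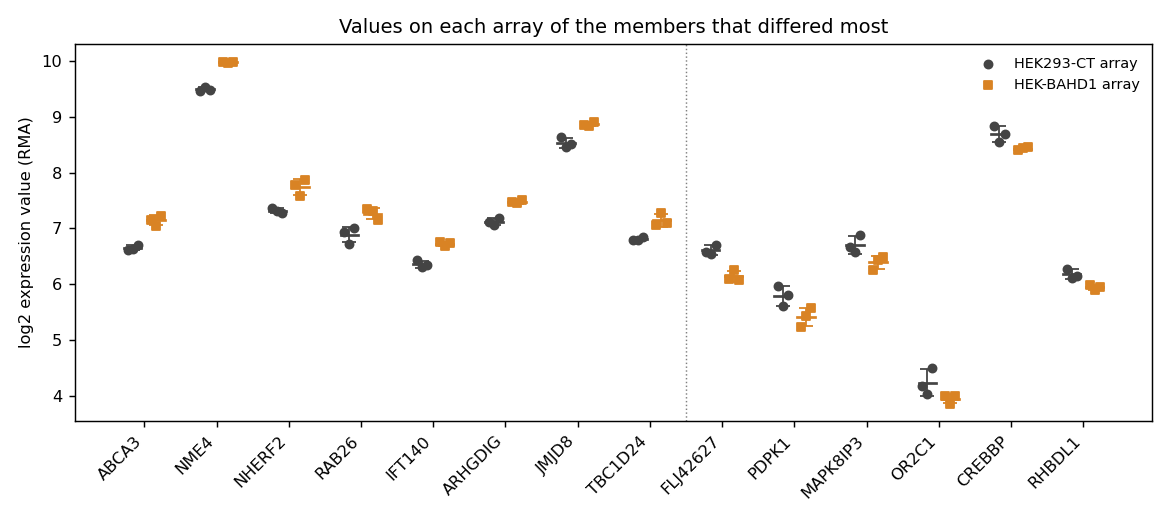
Log2 expression value (y axis) on each of the 3 HEK293-CT arrays (circles) and 3 HEK-BAHD1 arrays (squares) for the 8 genes with the largest positive differences (left of the dotted line) and the 6 with the most negative (right), among probe sets whose groups do not overlap; bars are the mean and SD. ABCA3 moves from about 6.65 to 7.15, and each difference is under 0.5.

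On the negative side FLJ42627 was the only gene called on the rule given above. With a trended and robust limma prior, on the same deposited values, 8 members were called lower. Its probe sets read 6.58, 6.55 and 6.71 against 6.09, 6.25 and 6.08, a difference of -0.47 ± 0.07 (SE), and 6.59, 6.56 and 6.71 against 6.13, 6.31 and 6.13, a difference of -0.43 ± 0.07 (SE). These are not independent measurements, as they followed each other from array to array. FLJ42627 lay in the longest run of negative differences, from PDPK1 to KCTD5, which was noticed after the values were seen. All 9 probe sets of its 5 genes were below 0, between -0.47 and -0.08, with a median of -0.27. Not called here but called lower under 1 or more of the other settings were MAPK8IP3, CREBBP, RHBDL1, TNFRSF12A, GNPTG, CLCN7, CCDC78, ERVK13-1 and 3 PDPK1 probe sets.

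PDPK1, the kinase that activates AKT and S6K, held 4 of these probe sets, at -0.38, -0.38, -0.19 and -0.08. Both probe sets at -0.38 held the same value on every array, 5.97, 5.61 and 5.81 against 5.24, 5.44 and 5.57. Probe sets of this stretch share sequence with near-identical copies, so the run counts fewer separate measurements than probe sets. None of the 4 was called, and the brightest, at 9.05, differed by -0.19. KCTD5, an adaptor of a cullin ubiquitin ligase at the other end, read 9.09 on each HEK293-CT array and 8.84, 8.93 and 8.96 on the others, and was not called.

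The next largest negative differences with groups apart were not called. MAPK8IP3, a scaffold that links JNK to kinesin, read 6.67, 6.57 and 6.88 against 6.25, 6.43 and 6.49, a difference of -0.32 ± 0.10 (SE). CREBBP read 8.84, 8.55 and 8.70 against 8.40, 8.44 and 8.45, a difference of -0.27 ± 0.08 (SE). OR2C1, an olfactory receptor at a low signal of 4.09, was at -0.29, RHBDL1, a rhomboid-type protease, at -0.23, TNFRSF12A, the receptor of TWEAK, at -0.21, and GNPTG, a subunit of the enzyme that tags lysosomal hydrolases, at -0.20. For each of these 6 all 3 HEK-BAHD1 arrays lay below all 3 HEK293-CT arrays.

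Grouped by function, the higher calls were most frequent among channels, transporters and vesicle traffic, with 5 of 13 probe sets called higher, none lower and a median of 0.143. They were ABCA3, NHERF2, RAB26, IFT140 and CACNA1H, a T-type calcium channel. CLCN7, a chloride-proton exchanger of lysosomes, was at -0.17, CLUAP1, another ciliary transport protein, at 0.04 and SYNGR3, a synaptic vesicle protein named after its value was seen, at 0.25, and these were not called. The lists of genes were drawn up with earlier results of these arrays known, and their counts are only a description beside the 6.79% and 6.39% of all tested probe sets.

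Mitochondrial proteins had 2 of 17 probe sets called higher, none lower and a median of 0.097. The calls were NME4 and MSRB1, a methionine sulfoxide reductase that is known mainly from cytosol and nucleus. TRAP1 was at 0.18 on its bright probe set (11.46) and 0.12 on its dim one (4.85), MRPS34, of the small mitochondrial ribosomal subunit, was at 0.21 and ECI1, an isomerase of fatty acid oxidation, at 0.00. Genes of the ribosome, tRNA and RNA processing had 1 of 14 called higher, THOC6, with a median of 0.040. POLR3K, a subunit of RNA polymerase III, was at 0.09 and SRRM2, a speckle splicing factor, at -0.12.

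Genes of mTORC1 control, the complex that couples growth to nutrients, had 1 of 9 probe sets called higher and none lower, with a median of -0.077. These 9 probe sets were of 6 genes, and 4 of them were the PDPK1 probe sets given above. The median is itself the value of a PDPK1 probe set, so it does not stand for the 6 genes. The call was TELO2, which stabilises mTOR and related kinases, at 7.62, 7.61 and 7.63 against 7.77, 7.93 and 7.88. NPRL3, of the GATOR1 brake, was at 0.18, MLST8, a subunit of mTORC1, at 0.14 and TSC2, the GTPase activator that holds RHEB off, at -0.13. TSC2 and NTHL1 start from neighbouring ends, and NTHL1 read 7.76, 7.82 and 7.98 against 8.04, 8.16 and 8.09 where TSC2 read 8.55, 8.37 and 8.55 against 8.31, 8.43 and 8.35. Neither was called.

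Across the wider TSC and mTORC1 pathway, 46 of 51 listed genes were measured on 50 probe sets, of which 5 were called higher, 4 lower and 41 not, with a median of -0.023. Called higher were DEPTOR, an mTOR inhibitor, at 0.73, SESN3, a leucine-sensing sestrin, at 0.50, AKT1 at 0.47, TELO2 at 0.24 and WDR59, of the GATOR2 complex, at 0.23. Called lower were RICTOR, the scaffold of mTORC2, at -0.56, FNIP1 and FLCN, partners in a RAG GTPase activator, at -0.37 and -0.35, and TSC1 at -0.26. TELO2 was the only one of the 9 calls that lies in 16p13.3.

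No call in either direction was made among the 11 probe sets of DNA repair, replication and cell cycle (median 0.000), the 12 of the ubiquitin and SUMO pathway (0.033), the 5 of junctions and adhesion (0.020) or the 6 of innate immunity (0.060). In these lists CCNF, a cyclin of a ubiquitin ligase, was at 0.00, ELOB (elongin B) at 0.03, UBN1, of the HIRA histone chaperone complex, at -0.10, CLDN9 at 0.03, CASKIN1 at 0.20, MSLN at 0.00, NOXO1 at 0.05, IL32 at 0.18 and MMP25 at 0.03. Signalling had 1 of 19 called higher, ARHGDIG, with AXIN1, a scaffold of beta-catenin destruction, at 0.13 and TRAF7 at 0.24 and not called. Transcription and chromatin regulators had 1 of 14 called higher, JMJD8, with GLYR1 at -0.01 and the acetyltransferase NAA60 at -0.05. JMJD8 is on that list for its JmjC domain, although its protein is known from the endoplasmic reticulum.

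**Figure D3:**
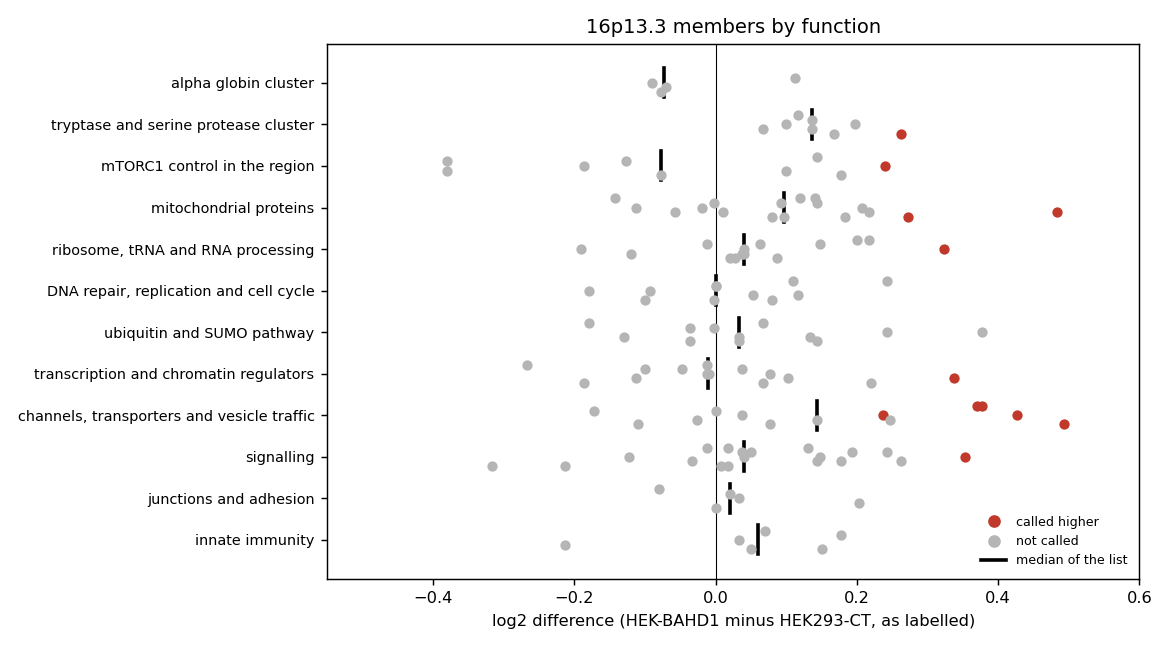
Log2 difference (x axis) of each member probe set in 12 lists of genes by function (y axis), coloured by call, with a black bar for the median of each list. Channels, transporters and vesicle traffic hold 5 of the higher calls. The medians run from -0.077 for mTORC1 control, where 4 of the 9 probe sets are of PDPK1, to 0.143.

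The lineage clusters gave low to middling signal. Of the alpha globin cluster, the embryonic zeta globin HBZ read 2.60 and 6.43 on its probe sets, HBM 6 and HBQ1 6.82 as means of the 6 arrays, with differences between -0.09 and 0.11 and no call in 4 probe sets. HBA1 and HBA2 had no probe set of their own. The erythroid markers that were measured, 5 of 7, had means from 4.09 for EPB42 to 6.21 for KLF1, and their summed values on each array lay between 23.48 and 23.58 for HEK293-CT and between 23.19 and 23.60 for HEK-BAHD1. HBB was called lower, at means of 4.48 and 4.16.

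All 8 probe sets of the tryptase and serine protease cluster had positive differences, from 0.07 to 0.26, with a median of 0.137, and 1, PRSS21, was called. PRSS21 read 5.39, 5.41 and 5.32 against 5.68, 5.54 and 5.69. PRSS27 was at 0.20, TPSG1 at 0.17, TPSD1 at 0.14, PRSS33 at 0.14, PRSS41 at 0.12, PRSS22 at 0.10 and the pseudogene PRSS30P at 0.07. Their mean signals lay between 5.11 and 6.85. TPSB2 and TPSAB1 had no probe set of their own. Of the 6 mast cell markers 5 were measured, from CPA3 at 3.11, HDC at 3.57 and CMA1 at 3.29 to GATA2 at 6.28 and KIT at 7.47. Their sums lay between 23.50 and 23.64 for HEK293-CT and between 23.70 and 23.92 for HEK-BAHD1, and no marker was called. The part of these cells in the protease values was not tested. Of 4 markers of other blood cells 3 were measured, PTPRC at 3.13, CD3E at 4.30 and CD14 at 5.02, with sums between 12.27 and 12.74 for HEK293-CT and between 12.23 and 12.72 for HEK-BAHD1.

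Values for 3 other areas are set beside those of 16p13.3. The areas on chromosomes 19 and 17 were gene-dense, with medians of 34.5 and 32 protein-coding genes starting within 500 kb. The rest of chromosome 16 was not, with a median of 16 against 12 around all placed genes. In what follows the members of 16p13.3 come first. Their median difference was 0.047, against 0.047 for the 157 probe sets of chromosome 19 below 5 Mb and 0.052 for the 170 of chromosome 17 above 75 Mb. It was 0.038 for the 568 on the rest of chromosome 16, and 0.003 for all tested. Called higher were 8.4% of the members, 8.9% (14) on chromosome 19, 15.3% (26) on chromosome 17 and 9.5% (54) on the rest of chromosome 16. Called lower were 1.1% of the members, 2.5% (4), 1.8% (3) and 2.3% (13) in the same order. The medians were near each other and the share called higher was larger on chromosome 17, and the differences between the areas were not tested.

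On single arrays, the median deviation of the members from the mean of the 6 arrays was -0.009, -0.065 and -0.015 for HEK293-CT replicates 1 to 3 and -0.029, 0.019 and 0.072 for HEK-BAHD1 replicates 1 to 3. The lines overlapped, since HEK-BAHD1 replicate 1 lay below HEK293-CT replicates 1 and 3. HEK-BAHD1 replicate 3 was the highest and HEK293-CT replicate 2 the lowest. On these arrays the areas on chromosomes 19 and 17 were near the members. They were at 0.077 and 0.073 on HEK-BAHD1 replicate 3 and at -0.067 and -0.056 on HEK293-CT replicate 2, while all tested probe sets were at 0.000 and -0.015. The lines overlapped on chromosome 19 but not on chromosome 17, where the lowest HEK-BAHD1 array was at -0.002 and the highest HEK293-CT array at -0.011. Nor did they overlap on the rest of chromosome 16, where these were at 0.004 and -0.011. Without HEK-BAHD1 replicate 3 the members' median difference was 0.026 and without HEK293-CT replicate 2 it was 0.032, and with each array centred on its median it was 0.010.

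**Figure D4:**
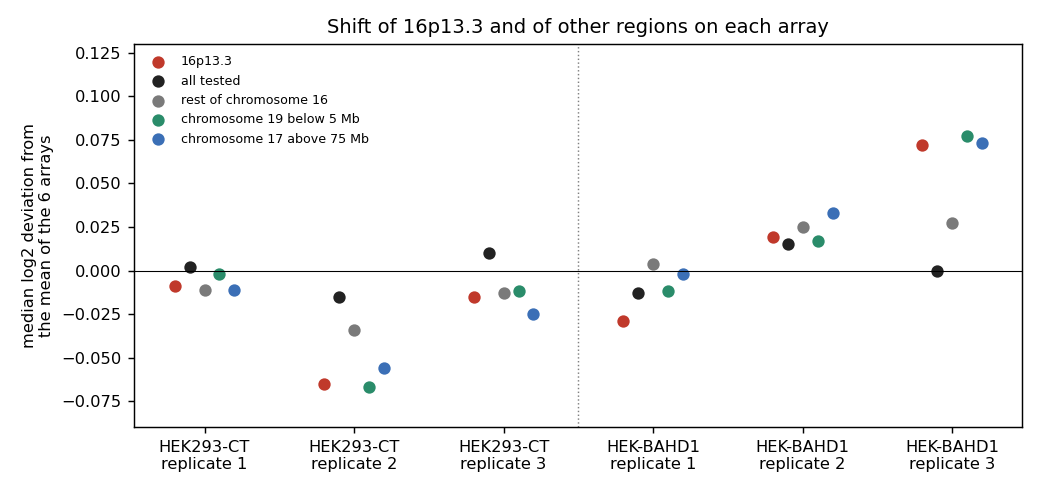
Median log2 deviation from the mean of the 6 arrays (y axis) on each array (x axis), for the 16p13.3 members, all tested probe sets and 3 other areas. The 16p13.3 points run from -0.065 on HEK293-CT replicate 2 to 0.072 on HEK-BAHD1 replicate 3, next to the points of chromosomes 19 and 17. The 16p13.3 point of HEK-BAHD1 replicate 1 lies among those of the HEK293-CT arrays.

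The members' difference varied with the signal level, but did not rise steadily with it. In the upper 50% of signal the members' median was 0.083, where that of all tested probe sets was -0.020. In the lower 50% it was 0.017, where that of all was 0.020. The other areas were also above 0 in the upper 50%, at 0.043 on chromosome 19, 0.055 on chromosome 17 and 0.022 on the rest of chromosome 16. In the lower 50% they were at 0.065, 0.045 and 0.055. By decile of signal the members were highest in the sixth to the eighth, at 0.103, 0.100 and 0.117 over 37, 19 and 20 probe sets, where all tested probe sets had 0.040, -0.007 and -0.030. In the highest 2 deciles, with 14 members each, they were at 0.003 and 0.052. Of the 15 higher calls 13 lay in the upper 50% of signal, as did 58.4% of all members. Among all tested probe sets higher calls made up 0.9%, 0.9%, 2.9%, 7.2% and 10.8% of the first 5 deciles. In the sixth to the tenth they made up 13.5%, 10.7%, 10.1%, 7.6% and 3.4%.

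**Figure D5:**
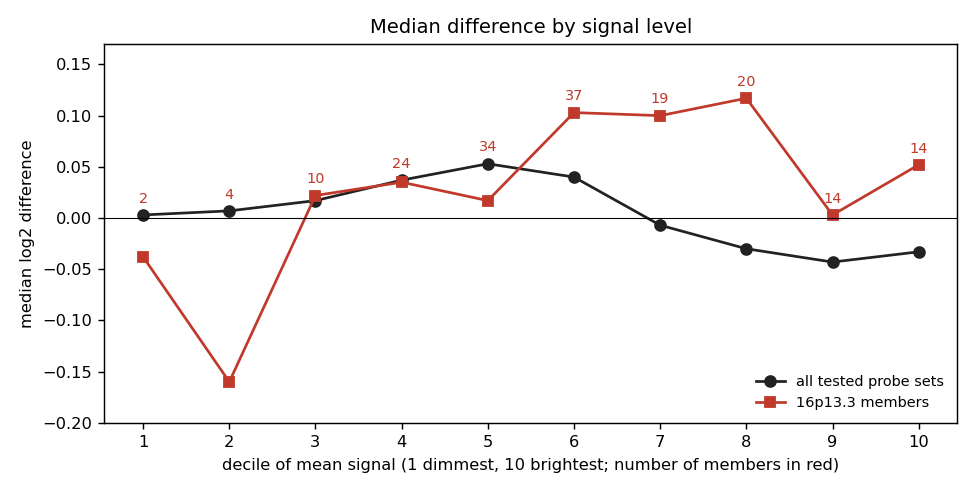
Median log2 difference (y axis) by decile of mean signal (x axis), for all tested probe sets (circles) and for the 16p13.3 members (squares), with the number of members in red. The members lie highest at 0.103, 0.100 and 0.117 in the sixth to the eighth decile, and the lowest 2 deciles hold only 2 and 4 members.

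Gene density and gene span were set beside the differences as a description. Of the members 87.6% had at least 27 protein-coding genes starting within 500 kb, as had 20.3% of the other placed probe sets, and the others' median difference was 0.010 in that densest 20% and 0.007 in the remainder. The members' medians were 0.045 and 0.047. Of the members 39.9% had a span of at most 6.1 kb, against 19.8% of the others. Among these short genes the members' median was 0.077, with 8 of 71 probe sets (11.3%) called higher and none lower. The others' was 0.017, with 4.2% called higher and 3.9% lower. Among the longer genes the members' median was 0.027, with 7 of 107 (6.5%) called higher and 2 (1.9%) lower. The others' was 0.003, with 7.7% called higher and 6.9% lower.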

How the data were processed

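The authors deposited log2 expression values of 6 Affymetrix arrays, made with RMA, which corrects background, normalizes between arrays and summarizes probes into probe sets; the sources used here give no version of it. Values have 2 decimals. Genes were assigned through the platform annotation, which can be old, and placed through RefSeq (GRCh38.p14). Of 28869 probe sets 19310 name 1 gene, 1752 several and 7807 none; the 21062 with a gene were tested with limma 3.58.1 in R 4.3.3 (lmFit and eBayes, no covariates, Benjamini-Hochberg). A call needed an adjusted p under 0.05 and group medians over 0.2 apart, the limits of the study's methods, which name the LPE test; that test was not run. The script was tested on simulated data. With 3 arrays per line, their number limits the precision, and p-values measure the spread between these arrays.

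The members and gene lists were chosen with earlier results of these data known. Genes named in the text were the 10 largest differences in each direction among members whose groups do not overlap, the 4 brightest of each list, all globin and tryptase cluster members, the 5 brightest members, the ends of the RAB40C to NTHL1 stretch and the neighbours of the 5 Mb limit; others are said to be chosen after their values were seen. For the last, 2 genes were given on each side. Outside the region only BAHD1 and the pathway and marker lists were named. For a gene with several RefSeq starts, the one farthest upstream was used. Alternatives tried were 3 scalings, centring by promoter G and C, 2 filters, 1 probe set per gene, another eBayes prior, the adjusted p alone, the replicate block and leaving out each array.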

Additional observations from a re-analysis of the deposited data

How the results depend on the processing

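Of 16 alternatives, none turned the sign of a called difference. Of the 17 called probe sets, 7 of 6 genes kept their call under every alternative in which they were tested: ABCA3, NME4, NHERF2, IFT140, ARHGDIG and both of FLJ42627. PRSS21 and CACNA1H lost it under 11 of 16, LMF1 under 9 and PAQR4 under 8. In turn 11 probe sets gained a lower call under at least 1 alternative, among them both equal PDPK1 probe sets under 7 of 15, MAPK8IP3 under 6 of 16, CREBBP and RHBDL1 under 4, TNFRSF12A under 3 and GNPTG under 2, and 11 gained a higher call, NTHL1 under 5 and MRPS34 under 3. Of 61 named genes, 43 never changed their side of the threshold. The count of members called lower, 2 in the report, was 10 with each array centred on its median, 6 with quantile normalization repeated, 6 with cyclic loess, 8 with each decile of promoter G and C centred on each array, 6 without the dimmest 30% of probe sets, 8 with a trended and robust prior, and 1 with 1 probe set per gene, where FLJ42627 counts once. The count called higher, 15 in the report, was 11, 19, 17, 12, 17, 16 and 15 in the same settings. As 75% of the member genes had a promoter, the setting by G and C is void as a check of base composition. The cause of these changes was not tested.

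With 1 array left out, members called higher numbered 7 to 12 and called lower 2 to 7. Without HEK293-CT replicates 1, 2 and 3 the higher calls were 9, 7 and 8, and 7 were called lower without HEK293-CT replicate 2. The members' median difference, 0.047 in the report, was 0.010 with arrays centred, 0.032 to 0.055 under the other alternatives that keep all arrays, and with 1 array out was lowest at 0.026, without HEK-BAHD1 replicate 3, and highest at 0.068, when replicate 1 of that line was dropped. Without HEK-BAHD1 replicate 3 it was -0.017 in the third 1 Mb step and -0.010 in the last, where leaving out other arrays gave up to 0.045. The step medians also went below 0 with arrays centred, at -0.018, -0.010 and -0.003 in the last 3 steps, and were -0.007 in the fourth with quantile normalization and with cyclic loess.

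The replicate numbers did not pair the arrays, since the correlations of deviations between arrays of the same number were -0.077, 0.074 and -0.038. With the replicate block 8 members were called higher and 2 lower; not every array correlated best with its own number. Signal over background could not be judged from the summarized values, so differences of dim probe sets such as OR2C1 have the least support.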
